A study of Trametes elegans with 15 samples.

Results

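The white-rot fungus *Trametes elegans*, labelled *Artolenzites elegans* strain BRFM 1663, was grown on pine, a softwood, and on aspen, a hardwood, and its transcript levels were compared between the woods. Of the 15 mycelium samples in the series, the 3 labelled pine and the 3 labelled aspen were chosen by their titles, and all 949 genes in the deposited table were included, whatever their level. Pine cultures held 15 g/l of sifted wood pieces and 2.5 g/l of maltose. Aspen cultures held 15 g/l of wood from a Wiley mill, and the amount of maltose printed in their label cannot be read. Both were shaken at 30 °C in the same salts medium, and poly A RNA of the mycelium was sequenced as paired ends from day 3. A difference between the woods therefore cannot be told apart from one in milling or in the amount of maltose. In bulk mycelium, less RNA per hypha and fewer hyphae that make it cannot be told apart. The other 9 samples, 3 for each medium, were grown on 20 g/l of maltose alone, or on 15 g/l of crystalline cellulose (Avicel) or of wheat straw pieces, both with 2.5 g/l of maltose. Differences of cellulose or straw from maltose are thus also differences in the amount of maltose, and these cannot be told apart. How the 949 genes were selected is not stated.

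White-rot fungi secrete enzymes that break down cellulose, hemicellulose and lignin, and many of the genes for these enzymes are switched on by plant polymers and held back by simple sugars. Softwood and hardwood differ in the polymers that such enzymes meet. Softwood lignin is built mainly of guaiacyl units and its main hemicellulose is galactoglucomannan, whereas hardwood lignin holds syringyl and guaiacyl units and its main hemicellulose is glucuronoxylan. Pine wood is also rich in resin. The table gives genes by number and pairs no number with a name or function, so no gene below can be assigned to an enzyme family.

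Levels are the authors' deposited values, which could be decoded as log2(normalised reads + 1) averaged over libraries. The decimals of these values were solved for the whole reads of each library. Each wood has 3 libraries, called a, b and c here because the solved libraries carry no replicate number. Straw values decoded as an average over only 2 libraries, so straw levels and the lists made from them rest on 2 of the 3 straw samples. Recovered genes summed to 599476 to 734692 reads in the pine libraries and to 852225 to 968350 reads in the aspen libraries. These sums leave out the genes with most reads and are not the depth of a library, which is not known. Over the 834 genes with reads recovered in all 6 wood libraries, the root mean square difference was 1.39 to 1.45 between a pine and an aspen library, against 0.33 to 0.45 between libraries of the same wood. The median SD was 0.16 on pine and 0.16 on aspen. Read counts differed by more than sampling noise between all libraries of a wood. The chi-square per degree of freedom was 10.5 and 12.1 between pine library c and the other pine libraries, against 3.85 between those 2. It was 20.6 and 25.7 between aspen library a and the other aspen libraries, against 4.38 between those 2, so these 2 libraries stood somewhat apart. Whether samples of a wood came from separate cultures is not stated in the labels. P-values cover only the scatter among libraries, pooled over all 5 media and not the woods alone, and that scatter may be technical.

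More genes were lower on pine than higher. Of the 834 tested genes, 226 (27.1%) were lower on pine and 60 (7.19%) were higher, where a call required a limma adjusted p under 0.05 and a log2 difference of at least 1. Together these 286 genes were 34.3% of those tested, and 579 (69.4%) had an adjusted p under 0.05 by limma whatever the size. Differences were also larger in that direction: 105 genes were lower on pine by at least 2 and 15 by at least 4, against 10 higher by at least 2 and 0 by at least 4. The median difference of the called genes was -1.83 for those lower on pine and 1.32 for those higher. Libraries of the 2 woods did not overlap in 223 of the 226 genes lower on pine and in all 60 genes higher on pine. Over all tested genes, the pine libraries lay wholly below the aspen libraries in 406 (48.7%) and wholly above them in 208 (24.9%). By size over all 949 genes, 117 (12.3%) were lower on pine by at least 2 and 11 (1.16%) were higher. Without pine library c the counts were 210 lower and 62 higher, and without aspen library a they were 222 and 59.

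The balance of the 2 directions moved with the scaling of the libraries. The median difference over all 949 genes was -0.30, while the most frequent difference, the half-sample mode, was 0.02. Genes higher on pine were 21% of the calls on the deposited scale. Their share was 56.4% when each library was centred on its own median, 52.6% with quantiles made equal and 40.5% when each library was centred on its median departure from the gene means. The median difference of the tested genes was -0.39 on the deposited scale and became 0.19, 0.17 and -0.10 under these 3 scalings. No call turned to the opposite direction. Each of the 2 centrings shifts all differences equally, by too little to turn a call, so that outcome was fixed for them. Median levels over all listed genes were 8.11 on pine and 8.91 on aspen. Under all 3 scalings, 106 of the genes lower on pine and 56 of the genes higher on pine kept their call. With quantiles made equal only 782 genes were tested. Of the 286 called genes, 26 were not among them and count here as not kept. The rest of the text gives differences as deposited, to be read against the overall median of -0.30.

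**Figure D1:**
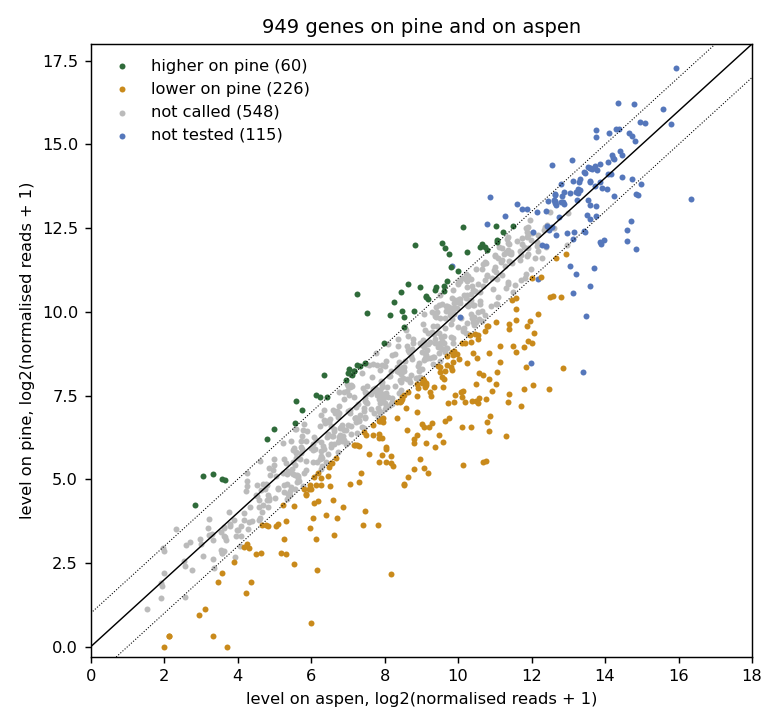
Deposited level on pine (vertical axis) against level on aspen (horizontal axis) for 949 genes, both as log2(normalised reads + 1), coloured by call; the solid line marks equal levels and the dotted lines a difference of 1. The 226 genes lower on pine spread far below the line, down to -6.01, while the 60 genes higher on pine lie closer to it, up to 3.30.

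Of the 548 tested genes that were not called, 293 had an adjusted p under 0.05 by limma but a difference smaller than 1. The 95% interval of the difference lay within 1 in either direction for 368 genes and within 0.5 for 116. At the limit of 1, gene 768790 was called at 1.00 (SE 0.17, limma adjusted p = 0.000121) and gene 926668 was not called at 0.9984 (SE 0.10). In the other direction, gene 766625 was called at -1.0005 (SE 0.14, limma adjusted p = 2.33e-05) and gene 811181, with 12 reads on pine and 30 on aspen, was not called at -0.9964 (SE 0.33). Calls so near the limit moved with the setting: 768790 was at 0.9811 with a pseudocount of 5 and 0.9393 without pine library a, and 766625 was at -0.4129, -0.3783 and -0.7086 under the 3 other scalings described above, so neither was then called. A further 99 genes stood at 13 or more on at least 1 wood and 16 gave several possible sets of reads, and these 115 were not tested. Gene 849698, at 13.02 on pine and 12.40 on aspen, lay just past that limit, and gene 814156, at 12.96 on pine and 12.99 on aspen, just short of it.

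Among the genes higher on pine, 767105 showed the largest difference. Its levels were 10.73, 10.54 and 10.34 in the pine libraries, against 7.08, 7.09 and 7.53 in the aspen libraries. All pine libraries were far above all aspen libraries, by 3.30 on the log2 scale (SE 0.23, limma adjusted p = 1.25e-08), a 9.85-fold difference. Its level on pine, 10.53, was nearest to that on maltose, 11.33, and its level on aspen, 7.23, was nearer to those on cellulose, 6.25, and straw, 6.27. Gene 849869 was also highest on maltose. It stood at 12.13, 11.98 and 11.60 in the pine libraries, against 9.80, 9.51 and 9.62 in the aspen libraries, and at 12.97 on maltose, 11.65 on cellulose and 9.99 on straw. It was higher on pine by 2.26 (SE 0.21, limma adjusted p = 2.66e-07). Aspen lay near straw for this gene, and pine between maltose and cellulose.

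Other genes stood higher on pine than on all other media. Gene 769467 stood at 12.05, 11.78 and 12.14 in the pine libraries, against 8.94, 8.89 and 8.66 in the aspen libraries, a difference of 3.16 (SE 0.12, limma adjusted p = 7.89e-11). On maltose, cellulose and straw it stood at 7.82, 7.54 and 8.44, so aspen was next highest but well below pine. Gene 810634 stood at 12.15, 12.30 and 11.70 on pine, against 9.44, 9.64 and 9.58 on aspen, a difference of 2.50 (SE 0.16, limma adjusted p = 7.02e-09). Its levels on maltose, cellulose and straw were 6.56, 8.17 and 7.62, so aspen was again next highest. Gene 877789 stood at 10.07, 9.96 and 9.90 on pine, against 7.46, 7.43 and 7.65 on aspen, and differed by 2.46 (SE 0.12, limma adjusted p = 5.29e-10). Aspen did not stand out for this gene, which lay at 7.82 on maltose, 6.70 on cellulose and 7.63 on straw.

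Genes 778999 and 821479 were steady on the media without wood and higher on pine. The first stood at 11.06, 11.21 and 10.26 in the pine libraries and at 8.87, 8.46 and 8.60 in the aspen libraries, against 7.46 on maltose, 7.31 on cellulose and 7.44 on straw. The second stood at 10.85, 10.90 and 10.02 in the pine libraries and at 8.47, 8.51 and 8.38 in the aspen libraries, against 8.21, 8.62 and 8.14 on the same 3 media. Pine library c was the lowest pine library for both genes but still lay above all aspen libraries. Gene 778999 was higher on pine by 2.20 (SE 0.21, limma adjusted p = 3.2e-07). Gene 821479 was higher by 2.14 (SE 0.18, limma adjusted p = 1.45e-07). Gene 676457 stood at 12.86, 12.58 and 12.16 in the pine libraries, against 10.07, 10.12 and 10.18 in the aspen libraries, and differed by 2.41 (SE 0.16, limma adjusted p = 9.35e-09). It also had high levels on maltose, 11.67, and straw, 10.97. The other 52 genes called higher on pine differed by 1.00 to 2.05.

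Genes lower on pine showed the widest gaps. Gene 808587 stood at 2.30, 1.65 and 2.54 in the pine libraries, which held 10 reads in all, against 8.80, 7.98 and 7.75 in the aspen libraries, which held 982. It was lower on pine by -6.01 as a log2 difference (SE 0.27, limma adjusted p = 2.19e-10). Its levels on the other media were 6.16 on maltose, 10.13 on cellulose and 10.28 on straw, so pine lay far below all of them. The difference was -5.10 when the pseudocount was raised to 5.

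Gene 804729 stood at 0.99, 0 and 1.14 in the pine libraries, which held 2 reads in all, against 6.16, 6.36 and 5.43 in the aspen libraries, which held 208. The ratio of aspen to pine was 90.6, with an exact 95% interval of 24.8 to 753 that covers counting error only. On the log2 scale used for the test the difference was -5.28 (SE 0.38, limma adjusted p = 1.92e-08), and -3.56 with a pseudocount of 5. Maltose, cellulose and straw gave 7.18, 8.30 and 9.82, so pine was again far below all other media. Of the 226 genes lower on pine, 7 held 3 reads or fewer on pine. Genes 789979 and 804624, named for this reason after their values were seen, held 0 reads on pine and 40 and 11 on aspen, so they were at least 11.6-fold and 3.19-fold lower on pine with a floor of 3 reads over the 3 libraries.

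Several genes were low on pine and on maltose but high on aspen, cellulose and straw. Gene 837354 stood at 5.56, 5.65 and 5.38 in the pine libraries, against 10.30, 10.85 and 10.86 in the aspen libraries, a difference of -5.14 (SE 0.21, limma adjusted p = 8.94e-11). It lay at 3.92 on maltose, 12.18 on cellulose and 13.87 on straw, so aspen lay nearer to cellulose and pine nearer to maltose. Gene 804045 stood at 6.14, 6.26 and 6.47 on pine, against 11.06, 11.31 and 11.58 on aspen, a difference of -5.02 (SE 0.17, limma adjusted p = 2.3e-11). With 5.01 on maltose, 11.88 on cellulose and 11.68 on straw, its level on aspen was close to those on cellulose and straw. Gene 277737 stood at 8.30, 8.42 and 8.29 on pine, against 12.50, 12.93 and 13.13 on aspen, a difference of -4.52 (SE 0.23, limma adjusted p = 7.74e-10). It lay at 6.44 on maltose, 11.45 on cellulose and 13.45 on straw, so pine was between maltose and the rest.

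Gene 876038 stood at 5.50, 5.34 and 5.81 in the pine libraries, against 10.61, 10.76 and 10.88 in the aspen libraries. The difference was -5.20 (SE 0.25, limma adjusted p = 4.65e-10), and the levels on maltose, cellulose and straw were 6.74, 9.50 and 10.64. Gene 30772 stood at 5.95, 5.14 and 5.16 in the pine libraries, against 9.74, 10.41 and 10.24 in the aspen libraries, with levels of 6.13 on maltose, 9.95 on cellulose and 14.18 on straw. It differed by -4.71 (SE 0.28, limma adjusted p = 2.67e-09). In both genes pine lay below maltose, while aspen was near cellulose or above it. Gene 237425 was the named gene with the strongest preference for straw over cellulose, at 12.84 against 7.88, with 5.08 on maltose. It stood at 7.67, 7.75 and 7.66 on pine, against 12.73, 12.34 and 12.39 on aspen, so pine matched cellulose and aspen matched straw, and it differed by -4.79 (SE 0.29, limma adjusted p = 3.15e-09). The other 218 genes called lower on pine differed by -4.51 to -1.0005.

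**Figure D2:**
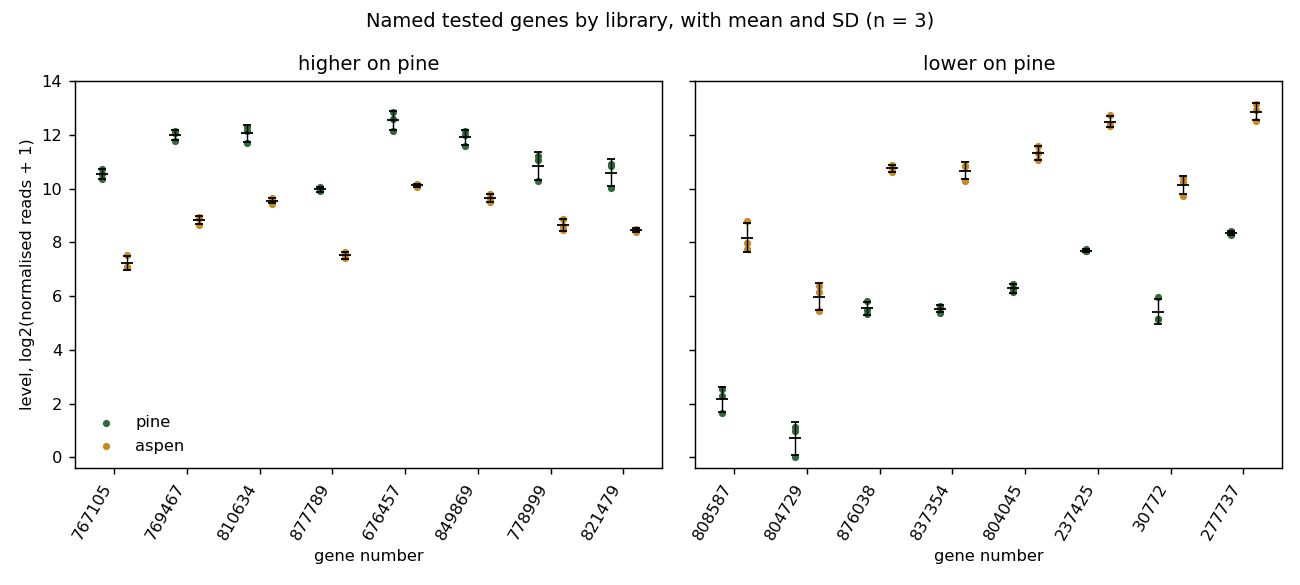
Levels of the 16 named tested genes in each pine and aspen library, as log2(normalised reads + 1), pine to the left of aspen for each gene; points are libraries and bars show the mean with its SD (n = 3 each). No gene has overlapping libraries, because the genes were chosen among those without overlap. Gaps are 2.14 to 3.30 for the 8 genes higher on pine and -6.01 to -4.52 for the 8 lower on pine.

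Among genes at 13 or more on a wood, differences of at least 1 were split more evenly between the directions. Of these 99 genes, 78 reached 13 on pine, 79 on aspen and 58 on both. By size alone, 15 (15.2%) were higher on pine by at least 1 and 20 (20.2%) were lower, against 79 (8.32%) and 251 (26.4%) of all 949 genes. Their median difference was 0.39. These genes have no recovered reads on at least 1 wood, so their differences have no error and no test.

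The largest negative difference among them was that of gene 802227, at 8.19 on pine and 13.39 on aspen, a difference of -5.19. Its pine libraries stood at 8.60, 8.11 and 7.88. It lay at 6.47 on maltose, 15.85 on cellulose and 16.97 on straw, the same order as gene 837354. Gene 775533 stood at 9.88 on pine and 13.47 on aspen, a difference of -3.59, and was highest on aspen of all 5 media, with 11.78 on straw and under 8 on cellulose (7.96) and maltose (7.29). Genes 876463 and 875190 were lower on pine by -2.97 and -2.82, at 11.87 and 10.79 on pine against 14.84 and 13.60 on aspen. They lay at 14.24 and 14.18 on cellulose and at 10.75 and 10.84 on maltose, so pine was near maltose for 875190 and somewhat above it for 876463.

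The gene with the largest level on aspen, 850433, was itself lower on pine. It stood at 13.38 on pine and 16.34 on aspen, a difference of -2.96, with 14.50 on maltose, 16.83 on cellulose and 15.33 on straw, so pine gave its lowest level. Gene 873101 had the largest level on pine, 17.27, against 15.93 on aspen, and its levels were lower on straw (14.56), cellulose (11.82) and maltose (10.77). It is thus a gene of high level on both woods, higher on pine by 1.34. Gene 826215 stood at 15.61 on pine and 15.79 on aspen, a difference of -0.18. Levels here are read counts, not corrected for gene length, which is not known, so they do not rank genes by transcript number.

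The largest positive difference among the high genes was that of gene 14443, at 13.42 on pine and 10.88 on aspen, a difference of 2.54. It stood at 11.86 on maltose, 11.23 on cellulose and 11.66 on straw, so pine was the medium that departed. Gene 876569 stood at 16.22 on pine and 14.36 on aspen, a difference of 1.87, and its levels on maltose, cellulose and straw were 13.43, 15.02 and 14.15. Genes 808290, 757146 and 872707 were higher on pine by 1.84, 1.68 and 1.62, with 14.39, 15.45 and 13.23 on pine against 12.55, 13.77 and 11.61 on aspen. Gene 812417, at 16.20 on pine and 14.78 on aspen, differed by 1.41. The other 89 high genes, 812417, 873101 and 826215 among them, differed by -2.57 to 1.48. The 10 genes with most reads took 25.9% of the listed genes' normalised reads on pine and 18.4% on aspen, and 5 genes were in the top 10 of both woods.

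Differences of at least 1 were found at every level. By the mean level over the 5 media, 24.9% of the 189 genes under 6 were lower on pine by size, as were 27.6% of the 323 genes from 6 to 9, 31.0% of the 316 genes from 9 to 12 and 14% of the 121 genes at 12 or more. Genes higher on pine made up 5.29%, 7.74%, 9.49% and 11.6% of the same classes. These shares are on the deposited scale. Over all listed genes, 79 were higher and 251 lower on that scale, but 295 and 134 with each medium centred on its median. The median difference was -0.41, -0.46, -0.27 and 0.34 in the same order, so on the deposited scale only genes at 12 or more had a positive median. A scaling that shifts all differences equally can change these signs but not the order of the classes. The median SE of tested genes was 0.29 under 6 and 0.12 from 9 to 12, so a difference near 1 was measured less firmly in genes of low level.

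**Figure D3:**
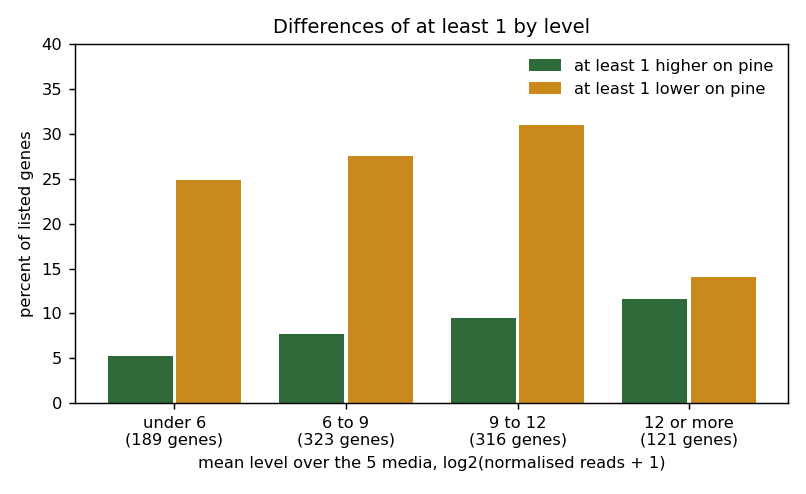
Percent of listed genes whose pine minus aspen difference was at least 1 in either direction (vertical axis), by mean level over the 5 media (horizontal axis). On the deposited scale, genes lower on pine outnumber genes higher on pine in all 4 classes. The shares are 24.9% to 5.29% under a level of 6 and 14% to 11.6% at 12 or more. Over all listed genes that direction depended on the scaling.

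The genes that differed between the woods were followed on the other 3 media, whose levels did not enter the difference, although their libraries share its estimate of the spread. For the 226 genes lower on pine, median levels were 6.73 on pine and 9.03 on aspen, and 6.78 on maltose, 9.04 on cellulose and 9.69 on straw. Over all 834 tested genes, medians were 7.63 on pine and 8.40 on aspen, and 7.63 on maltose, 8.31 on cellulose and 8.67 on straw. The median on pine was thus level with that on maltose, and aspen close to cellulose, over all tested genes too. This match of medians is therefore no feature of the 226 genes. Pine lay within 1 of maltose for 105 of the 226, against 509 of the 834. Aspen lay within 1 of maltose for 67 of the 226, against 460 of the 834. Gene by gene, maltose was nearer to pine for 141 of the 226 genes, whereas cellulose was nearer to aspen for 164 and straw for 181. Among all 834 tested genes, maltose was nearer to pine for 467, cellulose nearer to aspen for 507 and straw nearer to aspen for 532. All 3 features held for 78 of the 226 genes, against 181 of the 834.

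Pine gave the lowest of the 5 levels for 123 of the 226 genes lower on pine, against 226 of all 834 tested genes. For 56 of the 226 it was at least 1 below each of the other 4 media, against 57 of the 834. Aspen gave the highest level for 64 of the 226, against 166 of the 834. For 13 of the 226 it was at least 1 above each of the others, against 13 of the 834. A gene with pine at least 1 below all other media is at least 1 below aspen by definition. The same holds for aspen at least 1 above all others. The call rule thus places nearly all such genes among the 226, but does not set how many there are. Selection for a low value on pine relative to aspen also favours the other counts, so no test is attached to any of them. Genes 808587, 804729 and 876038, described above, are among the 56.

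The 60 genes higher on pine had another order of medians. Their median levels were 10.16 on pine and 8.50 on aspen, and 8.91 on maltose, 8.34 on cellulose and 8.46 on straw, so pine had the highest median. Pine gave the highest of the 5 levels for 40 of the 60, against 137 of all 834 tested genes. For 16 of the 60 it was at least 1 above each of the other media, against 16 of the 834. Genes 769467, 810634, 877789, 778999 and 821479 are among them. The 60 genes were selected for a high value on pine relative to aspen, which favours such counts. A gene with pine at least 1 above each other medium is at least 1 above aspen by definition. The call rule thus places such genes among the 60, but does not set how many there are. Maltose was nearer to pine for 28 and nearer to aspen for 32. Cellulose was nearer to aspen for 46 and straw for 41. Aspen gave the lowest level for 21, against 102 of the 834. It was at least 1 below every other medium for 2, against 2 of the 834, and the call rule again places such genes among the 60.

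**Figure D4:**
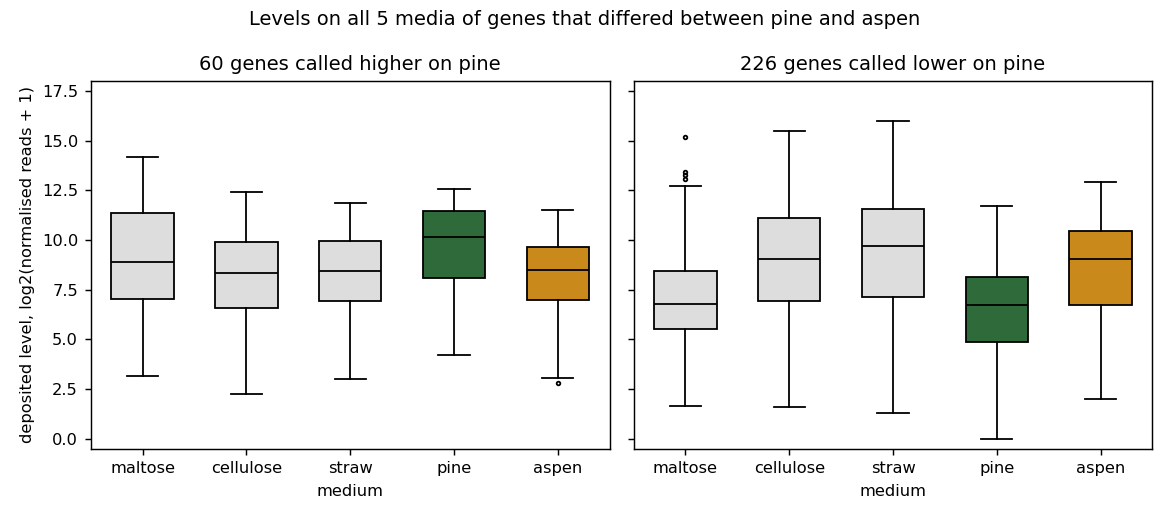
Deposited levels, as log2(normalised reads + 1), on the 5 media for the 60 genes called higher on pine (left) and the 226 called lower (right); boxes show the median and quartiles over genes, whiskers reach to 1.5 times the box height and points lie beyond. In the right panel the medians are 6.73 on pine, 9.03 on aspen, 6.78 on maltose, 9.04 on cellulose and 9.69 on straw. The medians on pine and maltose are level over all tested genes as well (7.63 each).

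Gene lists were then drawn from maltose, cellulose and straw only, so that pine and aspen values did not choose their members. Genes higher on straw than on maltose by at least 2 numbered 194 (20.4%). Their median pine minus aspen difference was -1.62, with a median level of 7.62 on pine and 9.78 on aspen, against -0.30 over all listed genes. Of the 171 tested members, 107 (62.6%) were lower on pine and 3 (1.75%) higher, against 27.1% and 7.19% of all tested genes. Genes 837354, 804045 and 30772 are examples of members lower on pine. Under the 3 other scalings the share lower on pine was 49.7% to 54.4% in this list, against 15.0% to 19.2% of all tested genes.

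Genes higher on cellulose than on maltose gave nearly the same picture. They numbered 154 (16.2%), and their median difference was -1.64, with 7.57 on pine and 9.80 on aspen. Of 136 tested members, 88 (64.7%) were lower on pine and 3 (2.21%) higher, against 27.1% and 7.19% of all tested genes. Under the 3 other scalings the share lower was 51.5% to 56.6%, against 15.0% to 19.2% of all tested genes. This list and the straw list share 107 genes, which are 55.2% of the straw list and 69.5% of the cellulose list. Those 107 genes had a median difference of -2.14, and 70 of their 94 tested members (74.5%) were lower on pine. The 87 genes on the straw list alone had a median of -1.03, and the 47 on the cellulose list alone one of -0.84. The 8 genes lower on pine that were described by library were all on the straw list and 7 of them, all but 804729, were on the cellulose list.

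Not every gene lower on pine belonged to these lists. Of the 226, 125 (55.3%) were on the straw list or the cellulose list, as were 213 of all 834 tested genes (25.5%) and 5 of the 60 genes higher on pine. Genes that differed between straw and cellulose, in either direction, had medians below that of all genes. The 82 genes (8.64%) higher on straw than on cellulose by at least 2 had a median of -1.71, with 46 of 74 tested members (62.2%) lower on pine and 2 higher. The 42 genes (4.43%) higher on cellulose than on straw had a median of -0.91, with 20 of 40 tested members (50%) lower on pine and 2 (5%) higher. Of all tested genes, 27.1% were lower and 7.19% higher, so that 5% was near the share of all. Under the 3 other scalings the share lower was 45.8% to 52.7% for straw over cellulose and 32.1% to 40% for cellulose over straw. It was 15.0% to 19.2% of all tested genes.

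Genes higher on maltose had medians above that of all genes. The 49 genes (5.16%) higher on maltose than on straw had a median difference, taken gene by gene, of -0.11. Their median level was 8.24 on pine and 8.16 on aspen, which differ in the other direction. Of the 49, 11 (22.4%) were lower on pine and 9 (18.4%) higher. That balance turned under the 3 other scalings, with 8 lower and 15 higher, 5 and 11, and 8 and 11, and it was 9 and 9 without pine library c. The 34 genes (3.58%) higher on maltose than on cellulose had a median of 0.38, with 10 of 33 tested members (30.3%) higher on pine and 5 (15.2%) lower. Their median level was 6.88 on pine and 7.20 on aspen, which again differ in the other direction. Gene 767105 is on both lists and gene 849869 on the first. Of all tested genes, 7.19% were called higher on pine, and these lists hold few genes.

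Genes that were steady on maltose, cellulose and straw, with a range under 0.5, were called lower on pine less often than all tested genes. They numbered 191 (20.1%), and their median difference, taken gene by gene, was 0.13. Their median level was 9.36 on pine and 9.50 on aspen, which differ in the other direction. Of the 163 tested, 139 were not called, 15 (9.20%) were lower on pine and 9 (5.52%) higher. Of all 834 tested genes, 548 were not called, 27.1% were lower on pine and 7.19% higher, so the shares higher were near each other. Genes 778999 and 821479 are named members that were called higher on pine. After median centring, 42 of the 163 (25.8%) were higher on pine and 3 (1.84%) lower, against 20% and 15.5% of all tested genes. The other 2 scalings also gave more higher than lower. The direction of this list and its share called higher thus depended on the scaling.

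**Figure D5:**
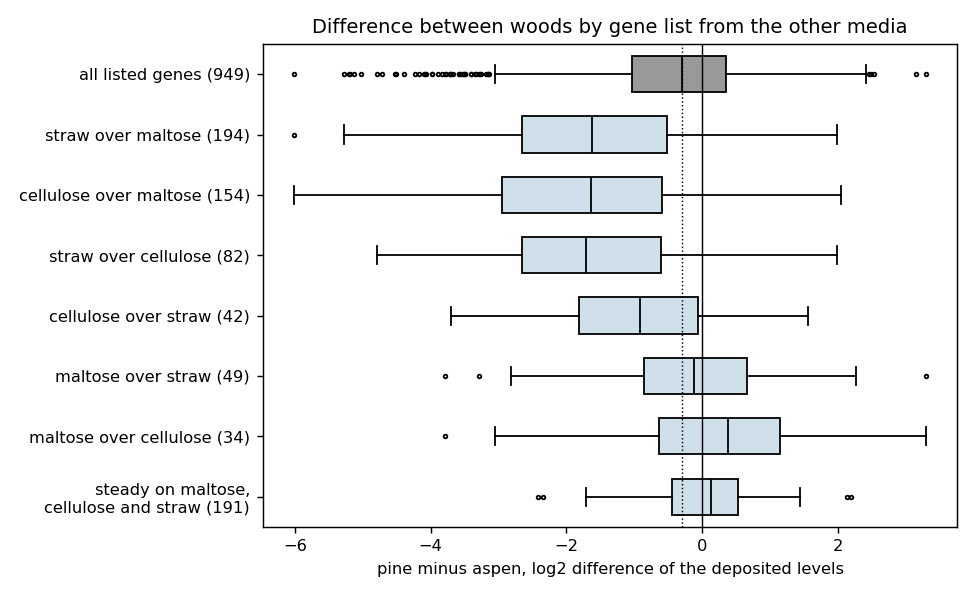
Pine minus aspen log2 difference (horizontal axis) for all listed genes and for 7 lists drawn from maltose, cellulose and straw; boxes show the median and quartiles, numbers of genes are in brackets, the solid line marks 0 and the dotted line the overall median of -0.30. The lists of genes higher on straw or cellulose than on maltose sit to the left, with medians of -1.62 and -1.64, and the steady genes sit at 0.13.

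Across all 949 genes, the pine minus aspen difference was set against differences that share no library with it. Pearson's r was -0.53 with straw minus maltose and -0.54 with cellulose minus maltose, and Spearman's rho was -0.41 and -0.47. With straw minus cellulose, r was -0.16 and rho -0.10. These values describe genes, which are not independent replicates, and the first 2 share the maltose libraries with each other.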

How the data were processed

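The submitters' processing notes list the tools DESeq 1.5, HTSeq and TopHat2 with no role for each. Genome build, annotation and strand setting: not given in the sources used here. In the deposited table, each gene has 1 log2 value per medium, headed as a normalised read count per the file headers, with no word on how libraries were combined. All 5 value columns were used. No genome was used.

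Each column was decoded by taking a value as an average, over K libraries with unknown factors, of log2(whole reads x factor + 1). K of the lowest values gave candidate factors and 5 further low values tested them. This left 1 solution per medium, with K = 3 on pine, aspen, maltose and cellulose and K = 2 on straw, so 1 straw sample is not analysed here. On the natural log scale, a set of reads had to come within 3e-14 of a value below level 9, and within 1.6e-13 from there. Libraries were searched in full below level 6, within 8-fold of their mean below level 11, within 1.5 on the log2 scale below level 12 and within 1 from level 12. The tolerances and ranges were settled after residuals were seen. On pine and aspen, 1718 of the 1741 values searched gave exactly 1 set, 23 gave several and 0 gave none, and 17 of 1741 decoys shifted by 1e-06 gave a set. Below level 9 these numbers were 1054 of 1054 unique and 0 decoys, and from level 12 to 13 they were 92 of 110 unique and 10 decoys, so a few sets there may be wrong. The 157 wood values at 13 or more were not searched.

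The test was limma 3.58.1 (R 4.3.3) on the per-library log2(reads x factor + 1), using 14 libraries, 1 mean for each medium, a trend with intensity and no block. SE and p therefore pool the spread of all media. Of the 286 called genes, 26 lacked reads in at least 1 other medium and were fitted on fewer libraries. Quantile normalisation did not test these 26. Benjamini-Hochberg adjustment covered the 834 tested genes. The design provided for this test or, with no reads per library, for counts by size, which are given too. Named genes are the 8 largest differences in each direction among genes with no overlap that kept their call under 3 scalings, the 5 largest untested in each direction, the 3 highest on each wood and those nearest the limit of 1. Alternatives were other scalings, a pseudocount of 5, a minimum level, no trend, wood libraries alone, each wood library left out, and other limits for sizes and lists. The test on recovered reads, and calls and bounds per list, were added after seeing the data. Near-identical or overlapping genes could not be examined. Gene lists, members and rules were chosen with earlier results of these data known.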

Additional observations from a re-analysis of the deposited data

How the results depend on the processing

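No paired analysis was possible because the recovered libraries carry no replicate number. Counts of calls higher and lower on pine (60 and 226) were 167 and 129 after median centring, 130 and 117 after quantile normalisation, which tested 782 genes, and 109 and 160 after centring on the median difference. Leaving out 1 wood library gave 54 to 64 higher and 210 to 225 lower. A pseudocount of 5, a minimum mean level of 4, no trend and a fit of the wood libraries alone kept both counts within 1.5 times. By size over all listed genes (79 and 251), counts were 295 and 134 with each medium centred on its median, 137 and 179 with the difference centred on its median, 74 and 253 with it centred on its most frequent value, and 11 and 117 at a size of at least 2. After the overall median was subtracted, list medians were -1.33 for straw over maltose, -1.35 for cellulose over maltose, -1.41 for straw over cellulose, -0.61 for cellulose over straw, 0.18 for maltose over straw, 0.68 for maltose over cellulose and 0.42 for steady genes. Lists made by a difference of at least 1, and then of at least 3, gave -1.01 and -2.09 for straw over maltose, -1.14 and -2.39 for cellulose over maltose, -0.92 and -2.29 for straw over cellulose, -0.66 and -1.21 for cellulose over straw, and 0.0466 and 0.25 for maltose over cellulose. With genes at 4 or more on a wood alone, the last list's median was 0.64. The cause of these moves beyond the scaling or list itself was not tested. The 16 genes described by library were selected for keeping their call under the 3 scalings; under the other alternatives they kept it too. Of the genes nearest the limit of 1, calls of 768790 were lost with a pseudocount of 5 and in 3 leave-one-out fits (0.9393 to 0.9503), and those of 766625 under the 3 scalings, with a pseudocount of 5 and in 3 leave-one-out fits (-0.9847 to -0.9185). Depth limits genes with few reads on pine. Genes at 13 or more have no test because their values were not searched for reads.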
